A study of Mus musculus with 26 samples.

Results

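The replication-type histone genes were followed in the mouse embryonic stem cell (ESC) line E14, by RNA-seq and by HiChIP of RNA polymerase II. Members were the gene rows whose symbol begins with Hist1 to Hist4 followed by an H1, H2A, H2B, H3 or H4 class name, which gave 70 of 52535 rows. In HiChIP, members were the loops with an anchor in chr13:21700000-24000000 (mm10 build), where the main cluster lies. These were 538 of 489409 loops in the Klf4-KO-labelled list and 886 of 143451 in the WT-labelled list. HiChIP captures contacts between distant pieces of chromatin where a chosen protein, here the polymerase, is bound, and each contact sequenced counts as a paired-end tag. For both assays the labels give cells induced toward neural progenitors (NPC) for 12 days. Klf4-KO cultures carry a knockout of Klf4, a transcription factor active in naive pluripotency, and WT cultures are the same line with the gene unaltered. There were 2 biological replicates per genotype and assay, and the labels do not say how many clones the KO culture comes from. ESC ChIP-seq samples were not analysed here.

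Replication-type histone genes encode the H1, H2A, H2B, H3 and H4 proteins that package newly copied DNA. They are mostly short genes without introns, transcribed in S phase, and their mRNA usually ends in a stem-loop bound by SLBP in place of a poly(A) tail. Many stand in tight clusters, often as H2A and H2B pairs transcribed away from each other from a shared promoter stretch. Vertebrate genomes also hold replication-independent histones, such as H2A.Z, H3.3 and H1.0, which are made through the cell cycle from polyadenylated mRNA.

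The RNA libraries held 31909094 and 33347088 gene counts (KO-labelled) and 37703866 and 29835774 (WT-labelled). Klf4 had 2571 and 2538 counts in KO-labelled libraries, against 0 and 0 in WT-labelled ones, the opposite of the labels, so groups are named by label and the direction of every change rests on them. Loops with a false discovery rate of at most 0.01 and at least 2 tags, both the authors' values, are called strong here. In HiChIP, strong loops within 2500 bases of Klf4 carried 4 tags in the KO-labelled and 32 tags in the WT-labelled list. Over all deposited loops there were 23 loops with 33 tags in the KO-labelled and 9 with 41 tags in the WT-labelled list, so it is not known that a label marks the same cells in both assays. Pluripotency genes were expressed in all libraries and 7 of 8 were lower in KO-labelled ones, with summed TMM-scaled CPM (gene counts relative to library size) of 4345 and 4408, against 7292 and 7321 in WT-labelled libraries. Of 9 neural progenitor markers tested, 8 were higher and 1 lower, with summed CPM of 193.8 and 200.9 in KO-labelled libraries, against 235.6 and 236.0 in WT-labelled ones. Pax6, a defining marker, had 120 and 130 counts in KO-labelled libraries and was at or near 0 in WT-labelled ones, with 6 and 0. The lower marker was Tubb3, a neuronal tubulin, with 762 and 727 counts in KO-labelled libraries, against 4915 and 3917 in WT-labelled ones, and without it the sum was 171.6 and 180.6 CPM in KO-labelled libraries, against 95.5 and 94.5 in WT-labelled ones. Over all 17273 genes tested, 37.2% were called higher and 35.8% lower. Of 13 markers of mesoderm, endoderm and fibroblasts, 12 were higher, with summed CPM of 896 and 878 in KO-labelled libraries, against 23.7 and 22.7 in WT-labelled ones. Their part in the histone results was not tested, and in these bulk cultures fewer cells of a type and less RNA per cell cannot be told apart.

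Histone gene RNA was scarce in every library. The 70 rows together had 1097 and 1193 counts in KO-labelled libraries, against 1437 and 1144 in WT-labelled ones, which is 0.00351% (KO-labelled) and 0.00382% (WT-labelled) of gene counts. By comparison, 17 replication-independent histone genes took 0.267% of gene counts in KO-labelled and 0.270% in WT-labelled libraries. Counts were below 20 in every library for 48 of the 70 rows, and 9 rows had none at all. These 9 were Hist2h2aa1, Hist2h2aa2, Hist2h2ab, Hist2h2bb, Hist2h3b, Hist2h3c1, Hist3h2bb-ps and the testis-type genes Hist1h2aa and Hist1h2ba. The third testis-type gene, Hist1h1t, had 4 and 0 counts in KO-labelled libraries and 4 and 0 in WT-labelled ones. The labels do not state whether RNA was selected by poly(A) tail, and reads without a unique alignment, 7.06% to 7.69% of each file's total, were left out of gene rows, so near-identical copies are under-counted.

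The summed level was lower in KO-labelled libraries, while its parts differed in direction. It was 32.6 ± 0.901 CPM in KO-labelled and 41.1 ± 0.270 CPM in WT-labelled libraries (SD, n = 2 each), a log2 ratio of -0.33 described without a test, since an exact permutation test of 2 samples against 2 cannot reach 0.05. The 5 members listed as having polyadenylated transcripts (Hist1h1c, Hist1h2bc, Hist2h2be, Hist3h2a and Hist4h4) gave 593 and 586 counts in KO-labelled libraries, against 546 and 493 in WT-labelled ones, with a log2 ratio of the CPM of 0.01. That sum holds a rise of Hist1h1c (log2 fold change 0.71) and a fall of Hist1h2bc (-0.40), so it does not show each member unchanged. Without these 5, the other 65 rows gave 504 and 607 counts in KO-labelled libraries, against 891 and 651 in WT-labelled ones, a log2 ratio of -0.63. With library size alone the ratios of the 5 and the 65 rows were 0.22 and -0.42. By class the log2 ratio was -1.45 for H3, -1.10 for H2A, -0.31 for H2B, -0.25 for H4 and 0.56 for H1. The log2 ratios of all rows, H2B and H4 shrank to -0.12, -0.10 and -0.04, in that order, when libraries were scaled by size alone, a scaling that raised the median gene's log2 fold change to 0.24, against 0.03 with TMM.

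**Figure D1:**
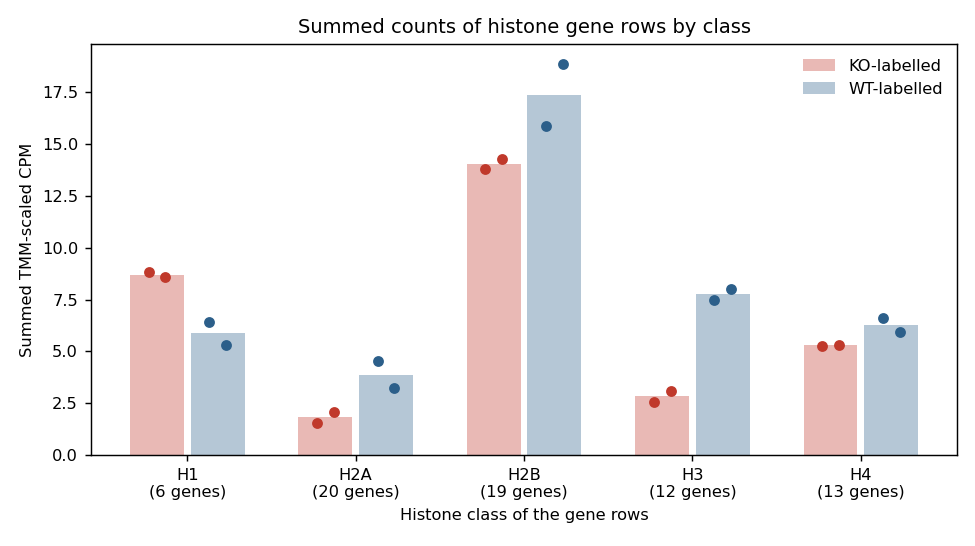
Summed TMM-scaled CPM of the histone gene rows of each class in the 2 KO-labelled and 2 WT-labelled libraries. Points are libraries and bars their mean; the H3 points lie at 2.57 and 3.10 CPM (KO-labelled) and 7.47 and 8.02 CPM (WT-labelled), and only H1 was higher in both KO-labelled libraries.

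Of the 70 rows, 30 passed the filter on low counts and were tested, and 15 of them changed: 2 were higher and 13 lower in KO-labelled libraries (p below 0.05 after Benjamini-Hochberg adjustment, quasi-likelihood test of edgeR). Over all 17273 genes tested, 73.1% were called, 37.2% higher and 35.8% lower, against 50.0% of the 30 histone rows. The median log2 fold change was -1.01 over the 30 histone rows and 0.03 over all genes. Only 8 of the 30 reached the filter's level in all 4 libraries, while 14 reached it in both WT-labelled libraries but not in both KO-labelled ones, and a row that passes through 1 group tends to be high there, so neither the count nor the median speaks for a direction of all members. Without the filter, 61 rows were tested, of which 2 were higher and 11 lower (18.0%), where 22.9% of all 28637 genes tested were higher and 22.1% lower. The count of lower rows dropped to 8 (26.7%) when scaled by library size, where 27.7% of all genes were lower, and to 7 (23.3%) with DESeq2, where 32.9% were. It was 6 of 34 without KO replicate 2 and 8 of 33 without WT replicate 2 (17.6% and 24.2%), where 32.7% and 32.8% of all genes were lower. Among the 8 rows at the filter's level in all 4 libraries, 2 were called higher and 2 lower. Of the 15 calls, 7 held under each of 10 alternatives: rises of Hist1h1c and Hist3h2ba and falls of Hist1h2ae, Hist1h2bk, Hist1h3c, Hist1h3h and Hist1h3i. All 5 of these falls are in rows that reached the filter's level in both WT-labelled libraries but not in both KO-labelled ones. Holding under the alternatives does not remove that limit.

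**Figure D2:**
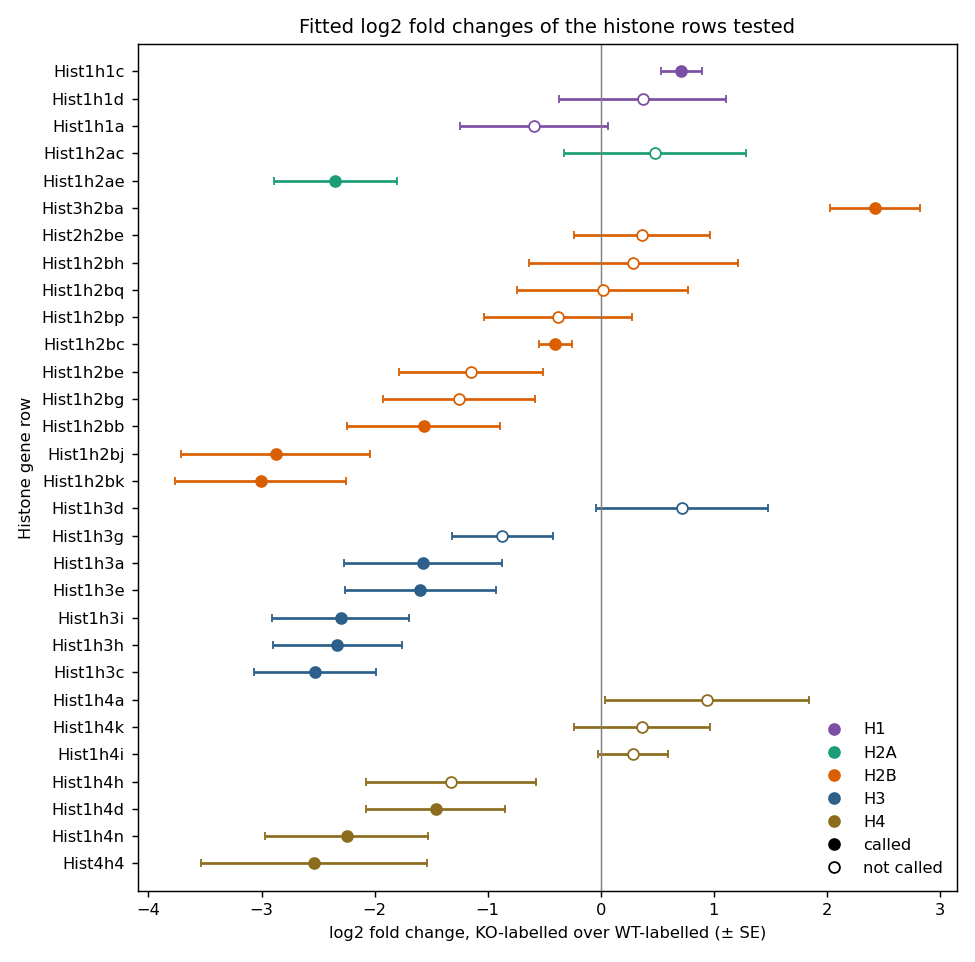
Fitted log2 fold change (KO-labelled over WT-labelled, with SE) of the 30 histone rows tested, coloured by class, with filled points for rows called and open points for rows not called. Filled points lie left of 0 except for Hist1h1c at 0.71 and Hist3h2ba at 2.43.

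The promoters of the 7 genes whose calls held under each alternative, and of 1 further pair with a called gene, are shown. The first set is the stretch between the starts of H2A and H2B genes that face away from each other. Among the 62 genes with a promoter window (described below) there were 10 such pairs, all of 1 H2A and 1 H2B gene and 163 to 280 bases apart. The 3 of these pairs with a called gene are given (RefSeq, GRCm38.p6, the assembly of mm10). Genes without a window, among them the called Hist1h2bc, were not searched for pairs. Capitals mark matches on either strand to a TATA box string (TATAAA), to the string CCAAT, or to the octamer string ATTTGCAT, and no 2 matches overlap.
Hist1h2ae and Hist1h2bg, chr13:23571221-23571399, plus strand: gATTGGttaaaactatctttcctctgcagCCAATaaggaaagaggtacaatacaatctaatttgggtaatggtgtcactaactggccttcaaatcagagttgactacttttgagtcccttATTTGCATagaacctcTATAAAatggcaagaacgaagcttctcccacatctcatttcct
Hist1h2ag and Hist1h2bj, chr13:22042950-22043197, plus strand: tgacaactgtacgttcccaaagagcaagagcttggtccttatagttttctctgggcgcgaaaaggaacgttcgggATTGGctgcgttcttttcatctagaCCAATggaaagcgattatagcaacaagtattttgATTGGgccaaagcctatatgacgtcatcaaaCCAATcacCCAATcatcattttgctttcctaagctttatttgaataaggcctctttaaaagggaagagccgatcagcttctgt
Hist1h2ah and Hist1h2bk, chr13:22035644-22035820, plus strand: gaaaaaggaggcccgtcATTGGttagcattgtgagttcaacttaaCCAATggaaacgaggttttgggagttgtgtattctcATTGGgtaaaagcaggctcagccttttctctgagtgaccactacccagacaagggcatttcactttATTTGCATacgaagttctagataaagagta
The second set is the 150 bases before the annotated start of the other 5 genes, in the direction of the gene.
Hist1h1c, chr13:23738657-23738806, plus strand: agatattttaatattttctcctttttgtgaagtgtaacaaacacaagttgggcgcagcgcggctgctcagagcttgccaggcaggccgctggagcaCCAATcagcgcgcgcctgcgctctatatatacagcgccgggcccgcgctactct
Hist1h3c, chr13:23745522-23745671, minus strand: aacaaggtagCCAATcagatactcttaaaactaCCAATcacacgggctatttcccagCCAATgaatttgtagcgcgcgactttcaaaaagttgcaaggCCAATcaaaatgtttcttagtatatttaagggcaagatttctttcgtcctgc
Hist1h3h, chr13:21717478-21717627, plus strand: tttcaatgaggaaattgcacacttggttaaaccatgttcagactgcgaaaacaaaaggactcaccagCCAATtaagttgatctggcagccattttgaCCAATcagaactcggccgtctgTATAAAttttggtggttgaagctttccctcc
Hist1h3i, chr13:21783398-21783547, minus strand: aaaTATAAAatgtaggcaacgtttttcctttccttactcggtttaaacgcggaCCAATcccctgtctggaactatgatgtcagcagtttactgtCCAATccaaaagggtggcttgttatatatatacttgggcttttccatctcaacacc
Hist3h2ba, chr11:58948761-58948910, plus strand: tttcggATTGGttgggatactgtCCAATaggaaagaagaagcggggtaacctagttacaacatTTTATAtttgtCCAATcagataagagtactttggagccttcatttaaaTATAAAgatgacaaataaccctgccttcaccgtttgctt

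The RefSeq table held 63 promoter windows for 62 of the 70 genes, each 250 bases before to 50 after a start. CCAAT stood in 85.7% of them, against 37.4% of 32851 promoters in all. It was in every H1, H2A, H2B and H3 window but in only 25.0% of the 12 H4 windows. TATAAA stood in 55.6% of histone windows, against 13.6% of all promoters. The octamer stood in 38.9% of H2A and 41.2% of H2B windows and in no window of H1, H3 or H4, against 1.74% of all promoters. CCCCACCC, one string that KLF proteins bind, stood in 4.76% of histone windows, against 9.99% of all promoters. A match is a description of these letters, not of a bound site.

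Within the H3 class, the core histone that carries many regulatory marks, 7 of 12 rows were tested. Of these, 5 were lower (71.4%, against 35.8% of all genes tested) and the other 2 were not called. Over all genes tested, 73.1% were called in either direction. Hist1h3c (chr13:23745042-23745521) had 7 and 13 counts in KO-labelled libraries, against 59 and 45 in WT-labelled ones. It fell by 2.52 ± 0.54 on the log2 scale (SE, edgeR adjusted p = 0.00019). Hist1h3h (chr13:21717628-21718115) had 12 and 8 counts in KO-labelled libraries and 44 and 46 in WT-labelled ones, and fell by 2.33 ± 0.57 (edgeR adjusted p = 0.00075). The groups did not overlap in either gene, and KO-labelled values lay wholly below WT-labelled ones in 42.1% of all genes tested. Hist1h3i (chr13:21782915-21783397), which held its call like these and is named for that, had 8 and 8 counts in KO-labelled libraries, against 37 and 34 in WT-labelled ones. All 5 lower rows (Hist1h3a, Hist1h3c, Hist1h3e, Hist1h3h and Hist1h3i) reached the filter's level in both WT-labelled libraries but not in both KO-labelled ones. A row that passes in this way tends to be high in WT-labelled libraries, so the share of lower rows does not speak for a direction of the class. The calls of Hist1h3a and Hist1h3e were lost with library size alone, without the filter, with DESeq2 and with the replicate block. Hist1h3g, the H3 row with the most counts in KO-labelled libraries, had 20 and 38 counts there, against 55 and 40 in WT-labelled ones, and did not pass (edgeR adjusted p = 0.0854). Its adjusted p was 0.0453 to 0.426 over the alternatives, with a call without KO replicate 2.

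H4 is the partner of H3 in the nucleosome core. Of 7 H4 rows tested, 3 were lower (42.9%, near the 35.8% of all genes) and 4 not called. Among the lower rows, Hist1h4n and Hist4h4 reached the filter's level in both WT-labelled libraries but not in both KO-labelled ones. Hist1h4i (chr13:22040960-22041362) had the most counts of the class, with 87 and 93 counts in KO-labelled libraries and 58 and 72 in WT-labelled ones, and its CPM values overlapped between groups (log2 fold change 0.28 ± 0.31, edgeR adjusted p = 0.422). Hist1h4n had 6 and 4 counts in KO-labelled libraries, against 28 and 16 in WT-labelled ones, and fell by 2.25 ± 0.72 (edgeR adjusted p = 0.00748), with an adjusted p of 0.00762 to 0.129 over the alternatives and no call without KO replicate 2 or WT replicate 1. Hist1h4d had 12 and 15 counts in KO-labelled libraries and 20 and 44 in WT-labelled ones (edgeR adjusted p = 0.0358), with an adjusted p of 0.00571 to 0.593 over the alternatives and no call under 6 of 10, among them leaving out KO replicate 1, KO replicate 2 or WT replicate 2. Hist1h4k, with 19 and 34 counts in KO-labelled libraries and 30 and 8 in WT-labelled ones, overlapped between groups.

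H2A and H2B form the outer dimers of the nucleosome. Hist1h2ae (chr13:23570663-23571220) had 9 and 12 counts in KO-labelled libraries, against 51 and 45 in WT-labelled ones, and fell by 2.35 ± 0.54 (edgeR adjusted p = 0.00044). It reached the filter's level in both WT-labelled libraries but not in both KO-labelled ones, and such a row tends to be high in WT-labelled libraries. Hist1h2ae was the H2A row with the most counts over all libraries, and Hist1h2ac, the other H2A row tested, had 5 and 18 counts in KO-labelled libraries and 12 and 3 in WT-labelled ones. Hist1h2bg, which faces away from Hist1h2ae across the stretch printed above, had 8 and 9 counts in KO-labelled libraries, against 23 and 14 in WT-labelled ones, and did not pass (edgeR adjusted p = 0.0978). Hist1h2af had 6 and 8 counts in KO-labelled libraries and 5 and 10 in WT-labelled ones and was not tested.

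Of 11 H2B rows tested, 4 were lower (36.4%, near the 35.8% of all genes) and 1 higher. Hist1h2bk (chr13:22035821-22036320) had 2 and 5 counts in KO-labelled libraries, against 23 and 28 in WT-labelled ones, and fell by 3.01 ± 0.76 (edgeR adjusted p = 0.00103). Hist1h2bj (chr13:22043198-22043658) had 2 and 3 counts in KO-labelled libraries, against 17 and 17 in WT-labelled ones, and fell by 2.88 ± 0.84 (edgeR adjusted p = 0.00366), with an adjusted p of 0.00372 to 0.0838 over the alternatives and no call without KO replicate 1, KO replicate 2 or WT replicate 2. Like the lower row Hist1h2bb, Hist1h2bk and Hist1h2bj reached the filter's level in both WT-labelled libraries but not in both KO-labelled ones. Rows that pass in this way tend to be high in WT-labelled libraries. Hist1h2ah and Hist1h2ag, the divergent partners of Hist1h2bk and Hist1h2bj, were too low to test. Hist1h2bc, whose transcripts can be polyadenylated, was the histone row with the most counts, 291 and 297 in KO-labelled libraries and 356 and 334 in WT-labelled ones. Its fall was 0.40 ± 0.14 (edgeR adjusted p = 0.0149), and over the alternatives the adjusted p was 0.00214 to 0.237, with no call under 5 of 10, among them leaving out KO replicate 2 or WT replicate 2. Hist1h2be had 6 and 19 counts in KO-labelled libraries, against 31 and 19 in WT-labelled ones, and did not pass (edgeR adjusted p = 0.108).

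The linker histone H1, which binds DNA between nucleosomes, went the other way through 1 gene. Hist1h1c (chr13:23738807-23739531) had 268 and 263 counts in KO-labelled libraries, against 160 and 130 in WT-labelled ones. It rose by 0.71 ± 0.18 (edgeR adjusted p = 0.00106), and per kilobase it was the most abundant histone row spanning under 1 kb, at 10.5 CPM in KO-labelled and 6.38 CPM in WT-labelled libraries. The other 5 H1 rows together had 34 and 44 counts in KO-labelled libraries and 66 and 17 in WT-labelled ones, which overlap. Among them Hist1h1a had 8 and 23 counts in KO-labelled libraries and 33 and 10 in WT-labelled ones, and Hist1h1d had 13 and 11 (KO-labelled) and 13 and 4 (WT-labelled), neither called.

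Outside the main cluster the largest rise was in Hist3h2ba, an H2B gene of the small Hist3 cluster on chromosome 11. It had 86 and 116 counts in KO-labelled libraries, against 15 and 18 in WT-labelled ones, and rose by 2.43 ± 0.40 (edgeR adjusted p = 6.61e-06). A long non-coding RNA, Gm51864, overlaps it, and the strand setting of the counting is not given in the sources used here. Its neighbour Hist3h2a had 8 and 6 counts in KO-labelled libraries and 3 and 5 in WT-labelled ones. Hist2h2be was the only tested row of the Hist2 cluster on chromosome 3, with 22 and 20 counts in KO-labelled libraries and 15 and 14 in WT-labelled ones (edgeR adjusted p = 0.599). Hist4h4, alone on chromosome 6, had 4 and 0 counts in KO-labelled libraries, against 12 and 10 in WT-labelled ones (edgeR adjusted p = 0.0266). Over the alternatives its adjusted p was 0.025 to 0.362, with no call with DESeq2, without the filter, or without KO replicate 2 or WT replicate 2, and it was too low to test without WT replicate 1.

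Genes that serve histone mRNA were mostly lower in KO-labelled libraries. Of 25 genes tested for transcription and processing of histone mRNA, 21 were lower (84.0%, against 35.8% of all genes) and 2 higher, with a median log2 fold change of -0.61 against 0.03 over all genes. Slbp, the stem-loop binding protein, had 2808 and 3027 counts in KO-labelled libraries, against 4632 and 3823 in WT-labelled ones, and fell by 0.70 ± 0.044 (edgeR adjusted p = 2.99e-13). Npat, the co-activator of histone genes phosphorylated by cyclin E and CDK2, fell by 0.34 ± 0.055 (edgeR adjusted p = 5.17e-06), and both were named for their role with values known. Cyclin E1 (Ccne1), which drives entry into S phase, had the largest fall of the list, 2.01 ± 0.041, and Ccne2 fell by 1.36 ± 0.11 (edgeR adjusted p = 4.52e-23 and 3.03e-11). The rises were in Upf1, an RNA helicase that takes part in histone mRNA decay, by 0.51 ± 0.037, and Sympk, a scaffold of the cleavage complex, by 0.22 ± 0.037 (edgeR adjusted p = 6.86e-12 and 1.22e-05).

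S-phase genes and histone chaperones followed the same direction. The lists share genes: Ccne1 and Ccne2 also stand among the S-phase genes, and Mcm2 stands among both S-phase genes and chaperones. Of 42 S-phase genes, 40 were lower (95.2%, against 35.8% of all genes) and 1 higher, with a median log2 fold change of -0.78. Rrm2, a subunit of ribonucleotide reductase, had 163 ± 8.06 CPM in KO-labelled libraries, against 518 ± 7.91 CPM in WT-labelled ones, and the single rise was Pold1, a catalytic subunit of DNA polymerase delta, at 213 ± 8.42 and 166 ± 6.58 CPM in the same order (SD, n = 2 each). Of 23 chaperones and deposition factors, 19 were lower (82.6%) and 3 higher. Daxx, which deposits H3.3, had 67.7 ± 2.73 CPM in KO-labelled libraries, against 146 ± 0.353 CPM in WT-labelled ones (SD, n = 2 each), and Mcm2, a helicase subunit that also holds H3 and H4, fell by 0.96 ± 0.026. Ubn1, of the HIRA complex, rose by 0.75 ± 0.055, and Rbbp7, a histone-binding protein, by 0.10 ± 0.027, a call lost without WT replicate 1 (0.08 on the log2 scale). Cell-cycle stage was not measured, and its part in the histone rows was not tested.

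Of 12 replication-independent histones tested, 4 were higher and 6 lower (33.3% and 50.0%, against 37.2% and 35.8% of all genes). The rises were led by the linker histones H1fx, with 689 and 834 counts in KO-labelled libraries, against 192 and 168 in WT-labelled ones, and H1f0, with 5840 and 6890 counts in KO-labelled libraries, against 2776 and 2155 in WT-labelled ones. H1f0 (H1.0) accumulates in cells that leave the cycle. H2afz, which encodes H2A.Z, had 692 ± 19.7 CPM in KO-labelled libraries, against 1061 ± 10.8 CPM in WT-labelled ones, and H2afy2, a macroH2A gene, 20.5 ± 0.963 and 29.3 ± 1.42 CPM in the same order (SD, n = 2 each). Among other RNAs without a poly(A) tail, 4 of 16 rows present could be tested. Rn7sk, the small nuclear RNA 7SK, had 79 and 93 counts in KO-labelled libraries, against 5 and 1 in WT-labelled ones, and rose by 4.64 ± 0.57 (edgeR adjusted p = 8.99e-08), while Rpph1, Scarna6 and Terc were not called.

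The 55 members in the chromosome 13 window form a pair of groups. The first holds 24 genes over 327.9 kb (chr13:21715711-22043658) and the second 31 genes over 403.9 kb (chr13:23531044-23934913), with 1487.4 kb between them. RNA of the first group was 6.003 ± 0.0314 CPM in KO-labelled libraries, against 10.7 ± 0.0716 CPM in WT-labelled ones, a log2 ratio of -0.83. RNA of the second, which holds Hist1h1c and Hist1h2bc, was 22.5 ± 0.456 CPM in KO-labelled and 28.8 ± 0.0553 CPM in WT-labelled libraries (SD, n = 2 each), a log2 ratio of -0.36. With library size alone the ratios were -0.62 for the first group and -0.15 for the second. The window also holds 79 tRNA genes, transcribed by RNA polymerase III, of which 31 lie within the span of the first group and 46 between the groups, and a stretch of Vmn1r pheromone receptor genes over 1212.3 kb.

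The window took a smaller share of loops in the KO-labelled list. Strong loops with an anchor in the window were 108 of 57463 in the KO-labelled list (0.188%, 95% Clopper-Pearson interval 0.154 to 0.227) and 230 of 22148 in the WT-labelled list (1.04%, interval 0.909 to 1.181). They carried 828 tags, 0.290% of the tags of strong loops, in the KO-labelled list and 2243 tags, 1.28%, in the WT-labelled list. On chromosome 13 alone they were 9.77% of strong loops (KO-labelled) and 29.6% (WT-labelled). Each label has 1 list for its 2 samples, so there is no test, and intervals cover counting error only. Anchors were called separately in each list, 36 covering 151.4 kb in the KO-labelled and 57 covering 326.5 kb in the WT-labelled list, and histone anchors were wider in the WT-labelled list (median 9.05 kb) than in the KO-labelled one (4.18 kb).

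What the anchors covered differed between lists. An anchor is called histone where it overlaps a member's promoter window (the gene span for the 8 members without one), tRNA where it covers a tRNA gene and no member, and other elsewhere. Of 87 strong loops with both ends in the window, 67 joined histone anchors in the KO-labelled list (77.0%), with 708 of their tags (90.3%). In the WT-labelled list 49 of 208 did (23.6%), with 892 tags (40.8%). Loops between tRNA anchors numbered 4 with 19 tags in the KO-labelled list and 52 with 579 tags in the WT-labelled list. Per 100000 tags of strong loops in each list, histone-to-histone tags were 248 (interval 230 to 267) in the KO-labelled and 509 (476 to 544) in the WT-labelled list, a smaller difference than that of tRNA-to-tRNA tags, 6.65 (4.00 to 10.4) and 331 (304 to 359) in the same order. Loops of a histone with a tRNA anchor carried 46 tags in the KO-labelled and 338 in the WT-labelled list.

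**Figure D3:**
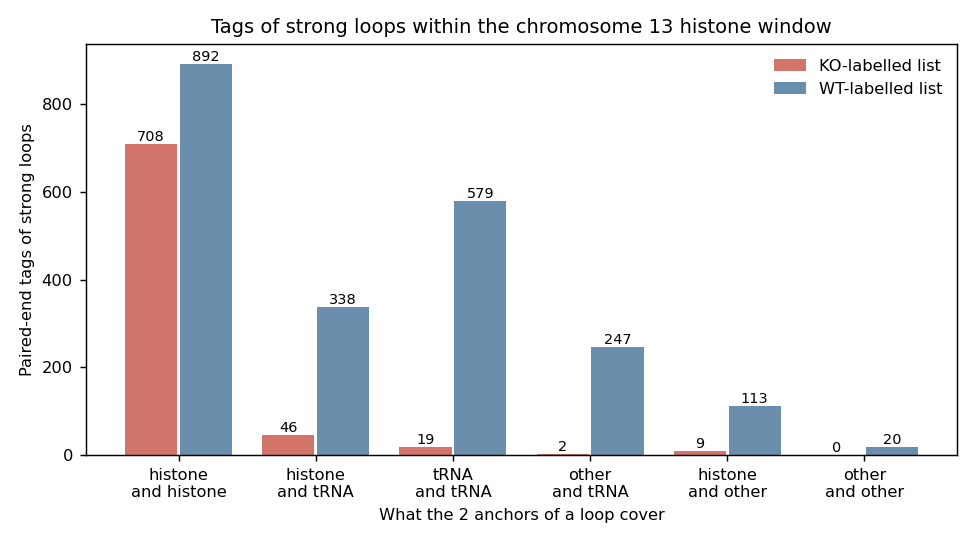
Paired-end tags of strong loops with both anchors in the window, by what the anchors cover, for the KO-labelled and the WT-labelled list. Histone-to-histone loops held 708 (KO-labelled) and 892 (WT-labelled) tags, tRNA-to-tRNA loops 19 and 579.

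Of the 79 tRNA genes, 17 lay under an anchor of a strong loop in the KO-labelled list and 46 in the WT-labelled list, anchors that also cover a histone gene included. Elsewhere in the genome a tRNA gene lay under an anchor in 0.514% of strong loops in the KO-labelled list (interval 0.457 to 0.576) and in 1.182% in the WT-labelled list (1.04 to 1.33), so the direction was shared outside the window. Within the window the shares were 31.5% (22.9 to 41.1) in the KO-labelled and 70.0% (63.6 to 75.8) in the WT-labelled list. Over the Vmn1r stretch between the groups, the WT-labelled list had 12 anchors, 7 of them in strong loops, where the KO-labelled list had 0. No Vmn1r row of the window passed the filter on low counts.

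Both lists held loops across the gap between the histone groups. Strong loops joining the spans of the groups numbered 32 with 92 tags in the KO-labelled list and 48 with 203 tags in the WT-labelled list. Of these, 28 (KO-labelled) and 22 (WT-labelled) ran from a histone anchor to a histone anchor. The KO-labelled loop with the most tags across the gap, 7, joined chr13:22039818-22044879 (Hist1h2ag, Hist1h2bj and Hist1h4i) to chr13:23529629-23536836 (Hist1h2af, Hist1h3g and Hist1h4h), 1491 kb apart. Among those of the WT-labelled list, with 15 tags, 1 joined chr13:22033247-22044879 (the same genes with Hist1h2ah and Hist1h2bk) to chr13:23548934-23565981 (Hist1h1d, Hist1h3e and Hist1h4f), 1518 kb apart, and another had a tRNA anchor at its first end. No loop in either list spans more than 2000 kb, so the outer ends of the groups could not be joined.

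**Figure D4:**
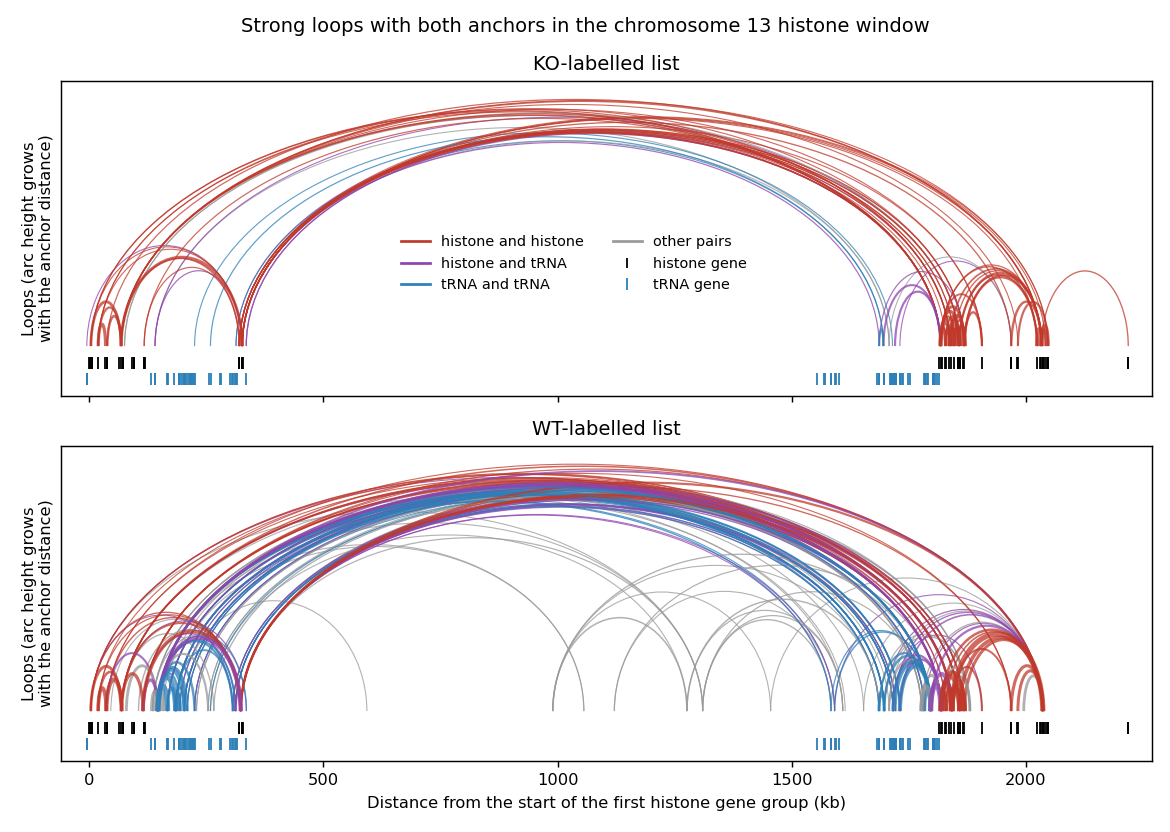
Strong loops with both anchors in the window, as arcs over the distance in kb from the start of the first histone group, KO-labelled list above and WT-labelled list below; thicker arcs have more tags and ticks mark histone and tRNA genes. Long arcs join the histone groups in both lists (32 KO-labelled, 48 WT-labelled), and arcs from tRNA anchors and from the gap are dense in the WT-labelled list.

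Within the second group, 29 strong loops carried 505 tags in the KO-labelled list and 20 carried 679 in the WT-labelled list. Within the first group's span, 11 carried 123 tags in the KO-labelled list and 36 carried 686 in the WT-labelled list. Among loops of the window, the 5 with the most tags in the KO-labelled list, 32 to 44 tags, all joined histone anchors of the second group. The strongest, with 44 tags, joined chr13:23568609-23577137 (Hist1h2ad, Hist1h2ae, Hist1h2bf, Hist1h2bg and Hist1h3d) to chr13:23580366-23587977 (Hist1h2be and Hist1h4d), and another, with 33 tags, joined the Hist1h1c anchor to that of Hist1h2ab, Hist1h2bb, Hist1h3b and Hist1h3c. In the WT-labelled list the strongest of the window, with 103 tags, joined chr13:23548934-23565981 (Hist1h1d, Hist1h3e and Hist1h4f) to chr13:23568609-23579447 (the same genes as the first anchor above). The third and the fourth of the window in that list, with 68 and 67 tags, joined tRNA anchors within the span of the first group.

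Loop by loop, 62 of the 108 KO-labelled strong loops (57.4%) had both anchors over those of a WT-labelled strong loop, against 4.83% of the whole KO-labelled list. In the other direction 44 of 230 WT-labelled loops (19.1%) were shared, against 11.8% of the whole WT-labelled list. Set against all deposited loops of the other list, 77 of 108 KO-labelled loops (71.3%) and 80 of 230 WT-labelled loops (34.8%) were shared. Of the loops joining the groups, 26 of 32 in the KO-labelled list and 16 of 48 in the WT-labelled list were shared. More than 1 KO-labelled anchor can lie in a single WT-labelled anchor, as in chr13:23548934-23565981. Several KO-labelled loops can therefore count as shared with the same WT-labelled loop, and the shares depend on anchor width, which differs between lists.

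Nearly every histone gene lay under an anchor of a strong loop, also those with little or no RNA counted. There were 65 of 70 in the KO-labelled list and 60 in the WT-labelled list. Of the 62 with a promoter window, 93.5% lay under one in the KO-labelled list, where 36.4% of all 27025 genes with a window did, and 87.1% in the WT-labelled list, where 23.2% did. Members share anchors, so they are not independent. In the Hist2 cluster all 10 genes did in each list, among them the 6 with no count in any library, and the loops there carried 274 tags in the KO-labelled and 242 tags in the WT-labelled list, or 95.8 and 138 per 100000 tags in the same order. In the Hist3 cluster the 3 genes lay under anchors of 5 strong loops with 61 tags in the KO-labelled list, of which 1 with 43 tags joined Hist3h2ba (chr11:58946764-58950756) to Hist3h2a and Hist3h2bb-ps (chr11:58952390-58956232), while the WT-labelled list had no strong loop there and 9 loops with 15 tags in all. Hist3h2ba was the histone row with the largest rise in RNA, within the limit on labels given above. At Hist4h4, which was lower in KO-labelled libraries, 3 strong loops carried 7 tags in the KO-labelled list and 6 carried 35 in the WT-labelled list. On chromosome 13 the anchor of Hist1h1c, a gene that rose, carried 60 tags in the KO-labelled list, against 264 in the WT-labelled list, where 1 anchor of 29.3 kb also covers 8 other histone genes, so tags cannot be assigned to single genes.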

How the data were processed

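The authors deposited, for RNA-seq, 1 file of unnormalized counts per library with a row for each gene. For HiChIP they deposited 1 loop list per genotype label. The lists have no header, and columns were read here as each loop's tag count and its q-value (false discovery rate) by the authors. Per the submitters' processing notes, the tools include HISAT2 2.1.0, featureCounts 2.0.3, HiC-Pro 2.11.1 and MACS2 2.2.7.1, with mm10. The closing rows of the count files have the form another counter writes, and the sources used here do not give the loop caller, strand setting or annotation. Only gene rows entered library sizes and tests. The other rows include ambiguous reads (4.19% to 4.41% of each file's total) and reads without a unique alignment.

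Counts were filtered with filterByExpr (10 counts at the median library, 0.306 CPM), and scaled with TMM, and the robust quasi-likelihood fit of edgeR 4.0.16 (R 4.3.3) gave two-sided p-values, adjusted by Benjamini-Hochberg over all genes tested. The script was tested on simulated data. A count of 3 is 0.0837 to 0.108 CPM. P-values rest on the spread between 2 biological replicates per group. The fit draws each gene's estimate of that spread toward the trend over all genes tested, so it is not the row's own spread alone. Alternatives were other scalings, no filter, DESeq2 1.42.0, a replicate block and leaving out each library, and for loops other thresholds and overlaps. Positions come from the RefSeq table of GRCm38.p6, which placed all 70 members. Hist1h2al is annotated outside the chromosome 13 window.

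Members, gene lists and tests were chosen with earlier results of these data known. Named genes were Klf4, the 3 highest rows and the 2 largest called rises and falls per class, tested rows of the clusters Hist2 to Hist4, the members with polyadenylated transcripts and the testis type, and the 2 largest called rises and falls in each other list. For loops they were the 5 of the window with the most tags per list. Others named were chosen after their values were seen.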

Additional observations from a re-analysis of the deposited data

How the results depend on the processing

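Across scalings, no filter, DESeq2, the block and leaving out each library, the number of histone rows higher stayed at 2 or 3. The number lower, 13, was 8 with library size alone and 7 with DESeq2 (9 changed in all), and 6 to 10 with 1 library left out (8 to 13 changed), where the lone library of a group is assumed to vary like the other group. The summed log2 ratio of -0.334 was -0.248 with upper-quartile factors, -0.124 with library size alone, and -0.367 to -0.306 with 1 library left out. Among all genes 50.9% of calls were rises, and 62.0% with library size alone, where the median log2 shift was 0.236 (0.112 with upper-quartile factors). Of the named histone rows not called, 5 changed sign when 1 library was left out, while Hist1h3g, Hist1h2be and Hist2h2be kept theirs. Hist1h2ac ranged from -0.649 without KO replicate 2 to 1.548 without WT replicate 1, Hist1h4k ranged from -0.195 without WT replicate 2 to 1.364 without WT replicate 1, Hist1h1a ranged from -1.486 without KO replicate 2 to 0.274 without WT replicate 1, Hist1h4i ranged from -0.024 without WT replicate 1 to 0.622 without WT replicate 2, and Hist1h1d ranged from -0.123 without WT replicate 2 to 1.219 without WT replicate 1. The cause was not tested.

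With the replicate number as a block, 2 histone rows were higher and 9 lower (6.67% and 30.0% of those tested), where 36.5% of all genes were higher and 35.4% lower. Over all genes 12410 were called with the block, against 12618 without it. The replicates' deviations correlated at 0.0153 between groups, so the shared numbers are not shown to pair the libraries.

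The window's share of loops was 0.110% (KO-labelled) and 0.618% (WT-labelled) over all deposited loops, 0.231% and 1.19% with at least 3 tags, and 0.258% and 1.36% at a false discovery rate of at most 0.001, groups in the same order. Loops joining the groups numbered 75 (KO-labelled) and 98 (WT-labelled) over all loops, and 15 and 28 with at least 3 tags. When a larger overlap was required, set relative to the shorter anchor, the window's shared loops stayed at 62 (KO-labelled) and 44 (WT-labelled). The shares over the whole lists were 4.43% and 10.9% in the same order. An anchor that lies inside a wider one meets this rule in any case, so the unchanged counts say little about how well anchors match.

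Counts under 20 in most rows limit what can be called, and copies that share sequence cannot be separated. Loops have no replicates, and their counts depend on anchors called per list.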

Other observations

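Among windows of 2.3 Mb over the genome, the histone window ranked 197 of 900 by strong loops and 117 by tags in the KO-labelled list, and 8 of 895 by loops and 3 by tags in the WT-labelled list. Strong loops leaving the window numbered 21 in the KO-labelled list, 14 of them toward higher positions, and 22 in the WT-labelled list, 17 of them toward lower positions. At their outer ends, 1 of 21 (KO-labelled) and 9 of 22 (WT-labelled) covered a tRNA gene. Of 15 other protein-coding genes of the window apart from Vmn1r and olfactory receptor genes, 7 were tested, of which 1 was higher and 4 lower. Over all genes tested, 73.1% were called, 37.2% higher and 35.8% lower, so these few calls are not read as a trait of the window. Abt1, an activator of basal transcription, had 1111 and 1180 counts in KO-labelled libraries, against 2351 and 1965 in WT-labelled ones, and Prss16, a thymus serine protease, had 167 and 195 counts in KO-labelled libraries, against 112 and 79 in WT-labelled ones.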
